A study of Saccharomyces cerevisiae with 10 samples.

Results

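Hexose transporters and glucose sensors of budding yeast were examined across 4 strains on 10 Affymetrix arrays. The members were the 10 genes HXT1, HXT2, HXT3, HXT4, HXT5, HXT6, HXT7, SNF3, RGT2 and MIG3, and they were taken as the probe sets that the platform annotation assigns to these symbols. The annotation gave 9 such probe sets, 1 for each of 9 genes, out of 5716 on the array. No probe set was annotated to HXT6, which is not analysed here on its own. The suffix of the HXT7 probe set marks it as shared between transcripts, and since HXT6 and HXT7 are known to be nearly identical, whether its signal is that of 1 or both cannot be told apart.

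Yeast takes up glucose through a family of membrane carriers that differ in affinity, and it changes which of them it makes as the glucose supply changes. The membrane proteins Snf3 and Rgt2 look like transporters but act as glucose sensors. When they bind glucose, casein kinases and a ubiquitin ligase remove the corepressors Mth1 and Std1, and the repressor Rgt1 then leaves the promoters of HXT genes. A separate branch, the kinase Snf1 and the zinc finger repressor Mig1 with its relatives Mig2 and Mig3, shuts off genes that are not needed while glucose is plentiful, among them those of some high-affinity carriers.

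Arrays came from W303-1A as wild type (WT, 3 arrays), from SChY58a with hpr1∆::kanMX4 (hpr1∆, 3 arrays), from DLY23 with sub2∆::HIS3 (sub2∆, 2 arrays) and from RK2-6C with tho2∆::KanMX4 (tho2∆, 2 arrays). All 4 are MATa and share the alleles trp1-1, ura3-1, leu2-3,112 and his3-11,15, and also can1-100 and ade2-1. Hpr1 and Tho2 are subunits of THO, a complex that couples transcription to mRNA packaging, and Sub2 is the RNA helicase that joins it in TREX. Cultures were in the middle of logarithmic growth in YPAD, a rich glucose medium with adenine. The labels name a single strain per genotype and call its arrays biological replicates. The p-values therefore measure the spread between arrays within these strains, pooled over all 4. Comparisons between mutants thus also carry the spread among the WT arrays, and comparisons with WT carry the spread within all the mutants.

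Intensities are linear values as deposited, and tests were made with limma on log2(intensity + 16). A difference was called where its p-value, adjusted by the Benjamini-Hochberg method over all probe sets tested in that comparison, was under 0.05. Errors are SE of the log2 differences, and the smallest number of arrays behind a tested strain was 2. Intensities of different genes come from different probes and were not set against each other. Where they were summed over a list, the brightest genes weigh most.

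Each deleted gene was lowest in its own strain. HPR1 read between 188 and 209 in hpr1∆ and between 517 and 629 in WT, SUB2 read 104 and 54.6 in sub2∆ and between 11974 and 12692 in WT, and THO2 read 322 and 183 in tho2∆ and between 2363 and 2556 in WT. The HPR1 signal left in hpr1∆ was not examined against the position of its probes. Of 6 markers of a cells, MFA1 and MFA2, the pheromone genes, were filled on all arrays, with a summed intensity between 4451 and 8629 in WT, 10905 and 16363 in hpr1∆, 13167 and 13344 in sub2∆, and 22840 and 24608 in tho2∆. STE2, STE6 and BAR1 were filled on every WT and hpr1∆ array but empty on every sub2∆ and tho2∆ array, so they could not be tested there. This was not confined to dim genes, since STE2 read between 4683 and 7991 in WT. Among those left to test, markers of a cells were called higher in 4 of 6 in hpr1∆, 3 of 3 in sub2∆ and 2 of 2 in tho2∆. In the mutants 0 were called lower. Over all probe sets 22.8%, 20.8% and 24.4% were called higher in these strains, and 22.8%, 40.4% and 32.6% lower. Of 4 markers of alpha cells, 1 was called higher in each mutant and 2, 1 and 1 lower in hpr1∆, sub2∆ and tho2∆. Their summed intensity lay between 1041 and 1241 in WT, 1303 and 1438 in hpr1∆, 2790 and 4097 in sub2∆, and 2081 and 2440 in tho2∆. Most of this sum was SAG1, the marker called higher, which read between 600 and 749 in WT and 3782 and 2434 in sub2∆. STE3 was called lower in all 3 mutants (-0.67, -0.48 and -0.50 in hpr1∆, sub2∆ and tho2∆). MF(ALPHA)1, the alpha pheromone gene, read between 29.8 and 87.4 on all arrays. The part of these markers in the results was not tested. WT arrays varied most: the SD among arrays of a strain, averaged over probe sets, was 0.21 (log2) in WT, 0.07 in hpr1∆, 0.10 in sub2∆ and 0.09 in tho2∆. Among WT arrays, replicate 1 lay furthest from the others (SD of the log2 difference 0.48 and 0.40, against 0.30 between replicates 2 and 3). It is left out where a result rests on it. Values were missing in 3220 of 57160 cells, and 5 of these belonged to members: HXT4 and HXT7 in WT replicate 1, MIG3 in WT replicate 2, and RGT2 in sub2∆ replicate 1 and tho2∆ replicate 2.

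The low-affinity carrier genes HXT1 and HXT3 and the repressor gene MIG3 fell in all 3 mutants, while the HXT7 probe set rose in hpr1∆ and tho2∆ and did not pass the test in sub2∆. In hpr1∆, 6 of 9 members were called, 1 higher and 5 lower, where 45.6% of all 5663 probe sets tested were called, 22.8% higher and 22.8% lower. In sub2∆, 5 of 8 tested members were called, 0 higher and 5 lower, where 61.2% of 4801 probe sets were called, 20.8% higher and 40.4% lower. In tho2∆, 4 of 8 were called, 1 higher and 3 lower, against 57.0% of 4752 probe sets, 24.4% higher and 32.6% lower. The numbers of members called in sub2∆ and tho2∆ were near this background, and what follows rests on single genes. The median log2 difference of the tested members was -0.59 in hpr1∆, -0.68 in sub2∆ and -0.45 in tho2∆, beside -0.01, -0.16 and -0.06 over all probe sets tested. Every mutant array lay on the same side of every WT array for 7 of 9 members in hpr1∆, 6 of 8 in sub2∆ and 6 of 8 in tho2∆, which also held for 58.2%, 71.1% and 69.1% of all probe sets. RGT2 had 1 value each in sub2∆ and tho2∆ and could not be tested there. Without WT replicate 1 the members called numbered 7 of 9, 7 of 8 and 6 of 8. Calls over all probe sets rose as well, to 3089 of 5672, 3235 of 4806 and 3030 of 4756. All comparisons with WT share the same WT arrays.

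**Figure D1:**
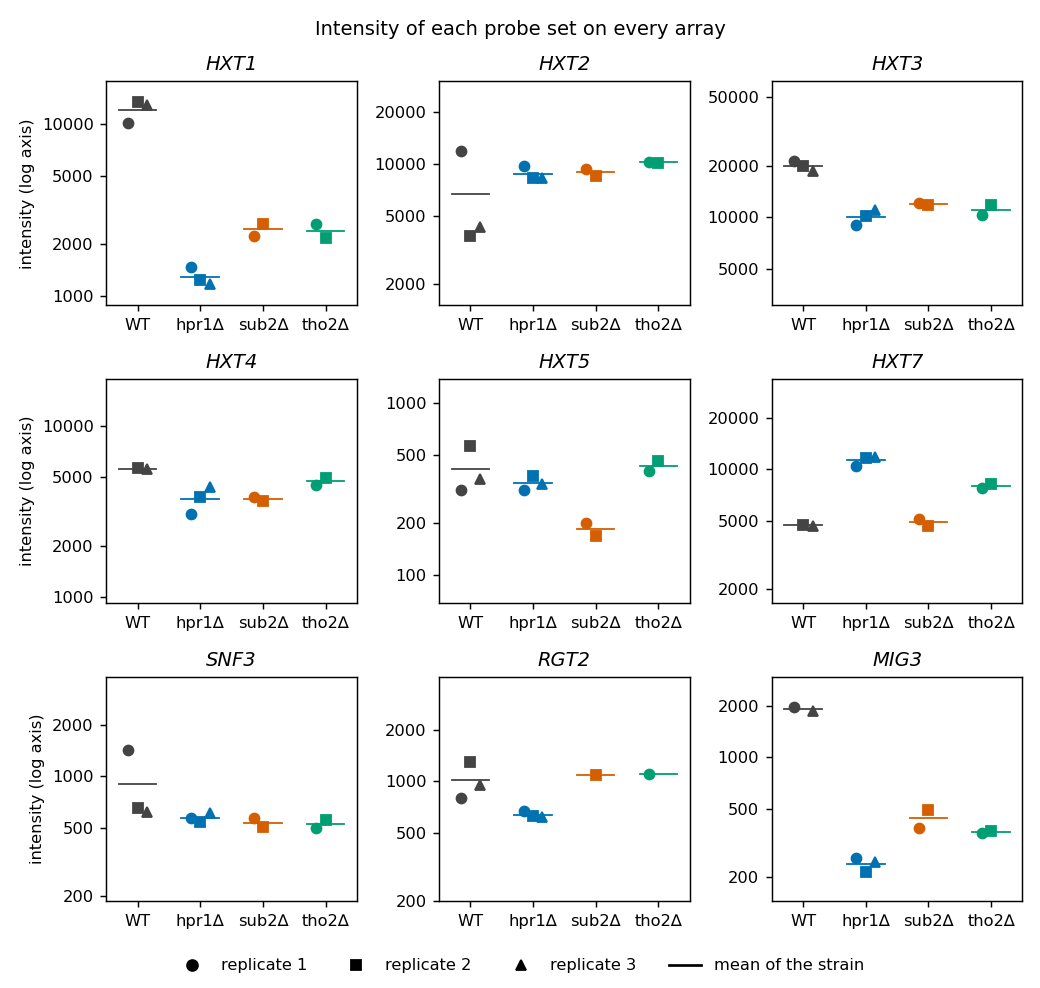
Intensity of the 9 probe sets (log axis, with the same number of decades in each panel) on every array by strain. Symbols give the replicate, lines the mean of the strain, and a missing symbol an empty cell. The WT arrays of HXT1, HXT3 and MIG3 lie above all mutant arrays, and in the panels of HXT2 and SNF3 WT replicate 1 lies apart from the other WT arrays.

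HXT1 encodes a low-affinity, high-capacity glucose carrier that is induced when glucose is abundant. It read 10191, 13417 and 12890 on the WT arrays. It read 1483, 1243 and 1174 in hpr1∆, 2245 and 2639 in sub2∆, and 2613 and 2183 in tho2∆. Every mutant array lay below every WT array, and every hpr1∆ array lay below the arrays of the other mutants. The log2 difference of HXT1 from WT was -3.21 ± 0.14 in hpr1∆ (9.24-fold lower, limma adjusted p = 3.76e-06), the 3rd lowest difference of 5663. It was -2.30 ± 0.15 in sub2∆ (4.94-fold lower, limma adjusted p = 7.72e-06) and -2.33 ± 0.15 in tho2∆ (5.03-fold lower, limma adjusted p = 9.91e-06), where it ranked 58th of 4801 and 37th of 4752 from the lowest. Each of these calls held under all 20 alternatives, with log2 differences between -3.34 and -3.13, -2.45 and -2.17, and -2.48 and -2.20.

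The mutants also differed among themselves in HXT1. The log2 level was higher than in hpr1∆ by 0.90 ± 0.15 in sub2∆ (limma adjusted p = 0.00162) and by 0.88 ± 0.15 in tho2∆ (limma adjusted p = 0.00300). Between sub2∆ and tho2∆ the log2 difference was 0.03, with a 95% interval from -0.36 to 0.41 (limma adjusted p = 0.923). The order of levels was therefore WT, then sub2∆ and tho2∆ without a difference beyond their spread, then hpr1∆. With a term for arrays with many empty cells, the differences from hpr1∆ were 0.68 and 0.65 and did not pass (limma adjusted p = 0.0654 and 0.0941). All sub2∆ and tho2∆ arrays had many empty cells and all hpr1∆ arrays few, so only WT had arrays of both kinds. The term was thus estimated from WT replicate 2 (414 empty cells) against WT replicates 1 and 3 (66 and 38). It carries the deviation of that 1 array into the comparison of the mutants.

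HXT3, the other low-affinity carrier gene, is expressed over a wide range of glucose levels. It read 21142, 19963 and 18605 in WT, 9013, 10112 and 10996 in hpr1∆, 12044 and 11794 in sub2∆, and 10361 and 11816 in tho2∆. All mutant arrays lay below all WT arrays, and hpr1∆ and tho2∆ overlapped. The log2 difference of HXT3 was -0.99 ± 0.09 in hpr1∆ (1.98-fold lower, limma adjusted p = 9.51e-05), -0.74 ± 0.10 in sub2∆ (1.67-fold lower, limma adjusted p = 0.000332) and -0.84 ± 0.10 in tho2∆ (1.80-fold lower, limma adjusted p = 0.000195). Between mutants no HXT3 difference passed, the largest being 0.25 ± 0.10 between sub2∆ and hpr1∆ (95% interval from 0.02 to 0.49, limma adjusted p = 0.0703). It passed under 4 of 20 alternatives.

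HXT1 and HXT3 therefore fell by unequal amounts. The log2 difference between the HXT1 and HXT3 signals within an array has no meaning by itself, since the probes differ, but it can be followed from array to array. It was -1.05, -0.57 and -0.53 on the WT arrays. It was -2.59, -3.01 and -3.21 in hpr1∆, -2.42 and -2.15 in sub2∆, and -1.98 and -2.43 in tho2∆. The WT arrays lay above all others and the hpr1∆ arrays below all others.

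**Figure D2:**
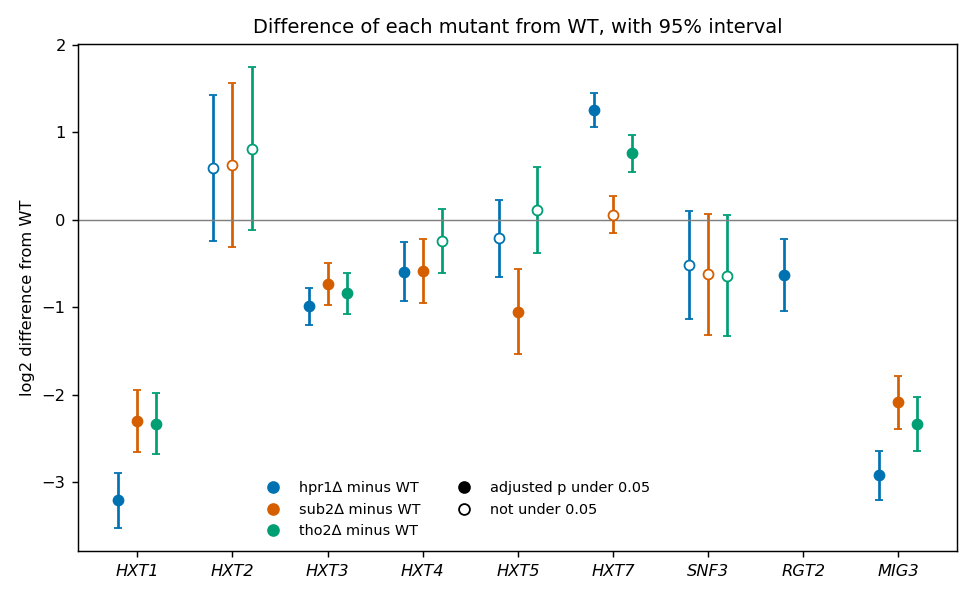
Log2 difference of each mutant from WT (vertical axis) for each gene (horizontal axis), as estimated by limma with its 95% interval (bars). Filled points have an adjusted p under 0.05. HXT1 and MIG3 lie lowest in all 3 mutants and the HXT7 probe set lies above 0 in hpr1∆ (1.25) and tho2∆ (0.76). RGT2 was tested in hpr1∆ alone.

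HXT7 encodes a high-affinity carrier that is normally repressed at high glucose. Its probe set read 4765 and 4683 on the 2 filled WT arrays, 10474, 11567 and 11859 in hpr1∆, 5142 and 4696 in sub2∆, and 7818 and 8182 in tho2∆. The hpr1∆ and tho2∆ arrays lay above all others and did not overlap each other, whereas sub2∆ overlapped WT. The signal rose by 1.25 ± 0.08 on the log2 scale in hpr1∆ (2.38-fold, limma adjusted p = 3.89e-05) and by 0.76 ± 0.09 in tho2∆ (1.69-fold, limma adjusted p = 0.000291). The empty WT cell was that of replicate 1, which for HXT2 read 11931 against 3815 and 4287 in replicates 2 and 3. Neither rise of the HXT7 probe set could be set against that array. In sub2∆ the log2 difference was 0.06, with a 95% interval from -0.15 to 0.27 (limma adjusted p = 0.609). All 3 differences between mutants passed: the log2 difference was -0.50 ± 0.08 for tho2∆ minus hpr1∆ (limma adjusted p = 0.00322), -1.20 ± 0.08 for sub2∆ minus hpr1∆ (limma adjusted p = 4.81e-05) and -0.70 ± 0.09 for sub2∆ minus tho2∆ (limma adjusted p = 0.00241). The order of levels was hpr1∆, tho2∆, then sub2∆ and WT without a difference beyond their spread.

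HXT4 encodes a carrier of higher affinity that is induced at low glucose. It read 5638 and 5601 on the 2 filled WT arrays, 3052, 3818 and 4399 in hpr1∆, 3856 and 3630 in sub2∆, and 4533 and 4937 in tho2∆. All mutant arrays lay below the WT arrays, with the hpr1∆ and sub2∆ arrays overlapping. HXT4 fell in hpr1∆, by a log2 difference of -0.59 ± 0.14 (limma adjusted p = 0.0117), and in sub2∆, by -0.58 ± 0.16 (limma adjusted p = 0.0129). In tho2∆ the difference was -0.25, with a 95% interval from -0.61 to 0.12 (limma adjusted p = 0.213). No difference between mutants passed, so that the lower call in hpr1∆ and sub2∆ does not set them apart from tho2∆. The call in sub2∆ was lost without sub2∆ replicate 2 (-0.54, limma adjusted p = 0.0684).

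HXT2 encodes a carrier that is also induced at low glucose and repressed by Mig1. It read 11931 in WT replicate 1 but 3815 and 4287 in replicates 2 and 3. It read 9737, 8282 and 8238 in hpr1∆, 9383 and 8520 in sub2∆, and 10260 and 10117 in tho2∆. All mutant arrays lay below WT replicate 1 and above WT replicates 2 and 3. With all WT arrays the log2 differences were 0.59 ± 0.37 in hpr1∆, 0.62 ± 0.41 in sub2∆ and 0.81 ± 0.41 in tho2∆, and none passed (limma adjusted p = 0.220, 0.216 and 0.121). Without WT replicate 1 HXT2 rose by 1.11, 1.14 and 1.33 (limma adjusted p = 5.67e-05, 3.12e-05 and 1.93e-05). With weights that reduce the influence of variable arrays it also rose, by 0.88, 0.97 and 1.15 (limma adjusted p = 0.00221, 0.00365 and 0.00120).

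In HXT2, WT replicate 1 lay 1.56 (log2) above the average of WT replicates 2 and 3, a distance larger than that of 99.4% of 5256 probe sets. For SNF3 the distance was 1.14, larger than that of 97.8%. For HXT1, HXT3, HXT5 and RGT2 it was -0.37, 0.13, -0.52 and -0.47. The stress and slow growth markers, a list of 10 genes of which 6 were filled on all arrays, had a summed intensity of 38282 in WT replicate 1 and of 30373 and 21982 in replicates 2 and 3. In hpr1∆ this sum lay between 39063 and 42509, in sub2∆ it was 31360 and 28488, and in tho2∆ 29934 and 32562. HSP12, which weighs much in the sum, read 7567 in WT replicate 1, 13651 and 8320 in replicates 2 and 3, and between 20204 and 21153 in hpr1∆. The mean log2 level of the same 6 genes gave another order. It was 12.53 in WT replicate 1, the highest of all arrays, 11.81 and 11.57 in replicates 2 and 3, and between 12.15 and 12.29 in hpr1∆. No marker of this list was near 0 in WT, and its part in the levels of HXT2 and SNF3 was not tested.

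**Figure D3:**
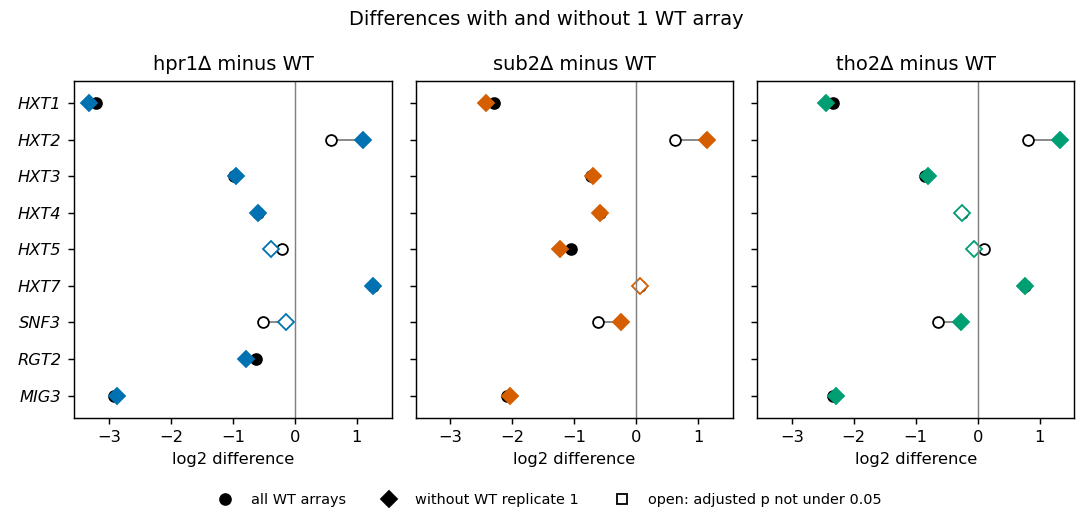
Log2 differences from WT (horizontal axis) of each gene in each mutant with all WT arrays (black circles) and without WT replicate 1 (coloured diamonds), with open symbols where the adjusted p was not under 0.05. HXT2 moves away from 0 and SNF3 towards 0, while HXT1, HXT3 and MIG3 move little. HXT4 and HXT7 had an empty cell on that array. MIG3 had one on WT replicate 2, so that without replicate 1 its WT level rests on replicate 3 alone.

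HXT5 encodes a carrier that is known from slowly growing and starved cells. It read 311, 562 and 365 in WT, 313, 378 and 340 in hpr1∆, 202 and 169 in sub2∆, and 405 and 460 in tho2∆. The sub2∆ arrays lay below all others, and WT overlapped hpr1∆ and tho2∆. HXT5 fell in sub2∆, with a log2 difference of -1.05 ± 0.21 (2.07-fold lower, limma adjusted p = 0.00268). The log2 difference from WT was -0.21 in hpr1∆ (95% interval from -0.65 to 0.22, limma adjusted p = 0.393) and 0.11 in tho2∆ (from -0.38 to 0.60, limma adjusted p = 0.694), and each changed sign under some alternatives.

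The sub2∆ strain also lay below the other mutants in HXT5, with -0.84 ± 0.21 against hpr1∆ (limma adjusted p = 0.0114) and -1.16 ± 0.24 against tho2∆ (limma adjusted p = 0.0110). Both were lost without sub2∆ replicate 2 (limma adjusted p = 0.0845 and 0.0699), and the second also without tho2∆ replicate 2 (0.0777). Of the 10 stress and slow growth markers, 6 were called lower and 2 higher in sub2∆ against WT (median -1.05). Among the lower were SPI1, a cell wall protein gene induced in stationary phase (-2.50 ± 0.14, limma adjusted p = 6.76e-06), and PGM2, a phosphoglucomutase gene (-1.42 ± 0.14, limma adjusted p = 7.66e-05). In hpr1∆ 4 of the 10 markers were called higher and 1 lower (median 0.42), and in tho2∆ 2 higher and 4 lower (median -0.46). Over all probe sets 45.6%, 61.2% and 57.0% were called in hpr1∆, sub2∆ and tho2∆, so the counts in hpr1∆ and tho2∆ were near the background. With WT replicate 1 left out, 5 markers were called higher and 2 lower in hpr1∆, and the counts in sub2∆ and tho2∆ were unchanged. Calls over all probe sets rose in each mutant without that array. GPH1, the glycogen phosphorylase gene, rose by 2.09 ± 0.11 in hpr1∆ (limma adjusted p = 1.69e-05), and HSP12, a stress-induced membrane protein gene, by 1.12 ± 0.19 (limma adjusted p = 0.00164). GPH1 was called higher in sub2∆ and tho2∆ too (0.32 and 0.94) and HSP12 in tho2∆ (0.81). SPI1 was also called lower in hpr1∆ and tho2∆ (-1.26 and -1.70) and PGM2 in tho2∆ (-0.81). The part of these markers in the HXT5 difference was not tested.

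In the genome annotation (R64) HXT1 and HXT5 are direct neighbours, and HXT4 lies on their other side with 1 annotated gene between it and HXT1. In sub2∆ all 3 fell, with log2 differences of -2.30, -1.05 and -0.58 for HXT1, HXT5 and HXT4. In hpr1∆ HXT1 and HXT4 fell, with -3.21 and -0.59, and the difference of HXT5 did not pass. HXT6 and HXT7 are neighbours as well, with 1 annotated gene between HXT6 and HXT3, yet HXT3 fell in hpr1∆ and tho2∆ while the HXT7 probe set rose there.

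SNF3 encodes the sensor that responds to low glucose and is itself repressed at high glucose. It read 1423, 652 and 623 in WT, 575, 545 and 608 in hpr1∆, 569 and 505 in sub2∆, and 499 and 559 in tho2∆. All mutant arrays lay below all WT arrays, though by little except against WT replicate 1. The log2 differences from WT were -0.52 ± 0.27 in hpr1∆, -0.62 ± 0.30 in sub2∆ and -0.64 ± 0.30 in tho2∆, and none passed (limma adjusted p = 0.147, 0.105 and 0.0996). Without WT replicate 1 they were -0.14, -0.24 and -0.26, which passed in sub2∆ and tho2∆ (limma adjusted p = 0.0408 and 0.0314) but not in hpr1∆ (0.172). Without WT replicate 3 they were -0.73, -0.83 and -0.85, and passed in sub2∆ and tho2∆ (limma adjusted p = 0.0459 and 0.0454).

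RGT2 encodes the sensor of high glucose. It read 800, 1301 and 953 in WT and 668, 625 and 622 in hpr1∆, where all arrays lay below WT. The single values of 1091 in sub2∆ and 1101 in tho2∆ lay within the range of WT. RGT2 fell in hpr1∆, with a log2 difference of -0.63 ± 0.17 (1.55-fold lower, limma adjusted p = 0.0227). The call was lost whenever 1 hpr1∆ array was left out (limma adjusted p = 0.0560, 0.0720 and 0.0713 without replicates 1, 2 and 3).

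MIG3 encodes a zinc finger protein related to the repressor Mig1. It read 1974 and 1857 on the 2 filled WT arrays, 259, 215 and 244 in hpr1∆, 387 and 495 in sub2∆, and 361 and 371 in tho2∆. All mutant arrays lay far below WT, and hpr1∆ lay below the other mutants. The log2 difference of MIG3 was -2.92 ± 0.12 in hpr1∆ (7.57-fold lower, limma adjusted p = 7.01e-06), -2.09 ± 0.13 in sub2∆ (4.25-fold lower, limma adjusted p = 1.15e-05) and -2.34 ± 0.13 in tho2∆ (5.06-fold lower, limma adjusted p = 9.91e-06). It ranked 6th of 5663, 78th of 4801 and 36th of 4752 from the lowest difference.

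Compared with hpr1∆, MIG3 was higher by 0.83 ± 0.12 in sub2∆ (limma adjusted p = 0.00101) and by 0.58 ± 0.12 in tho2∆ (limma adjusted p = 0.00771). The second of these did not pass with quantile normalization (0.25, adjusted p = 0.0760 by limma) and without tho2∆ replicate 2 (0.57, limma adjusted p = 0.0538). Between sub2∆ and tho2∆ the difference was 0.25, with a 95% interval from -0.06 to 0.55 (limma adjusted p = 0.215), and after quantile normalization it was 0.56 and passed (limma adjusted p = 0.0108). The order of levels, WT, sub2∆, tho2∆ and hpr1∆, had the same ends as that of HXT1.

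Over the comparisons between mutants, 3 of 8 tested members were called between tho2∆ and hpr1∆, 2 higher and 1 lower in tho2∆, where 37.6% of all probe sets were called, 15.4% higher and 22.3% lower. Between sub2∆ and hpr1∆ it was 4 of 8, 2 higher and 2 lower in sub2∆, against 51.6%, with 16% of all probe sets higher and 35.6% lower. Between sub2∆ and tho2∆ it was 2 of 8, both lower in sub2∆, against 20.8%, with 8.56% higher and 12.2% lower. The arrays of the strains did not overlap in 75.9%, 80.3% and 72.7% of all probe sets. The genes called were HXT1, MIG3 and HXT7 in the first, these and HXT5 in the second, and HXT5 and HXT7 in the third. The shares of members called were near those of all probe sets.

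The remaining genes of glucose signalling moved less than HXT1 and MIG3. Of 8 genes of the Rgt1 branch, 7 were tested in hpr1∆, where 0 were called higher and 1 lower, 6 in sub2∆ (0 and 3) and 7 in tho2∆ (0 and 2). Over all probe sets 45.6%, 61.2% and 57.0% were called in these strains, so the counts of this branch lay below the background. The median log2 differences of the branch were -0.10, -0.49 and -0.17. RGT1, the repressor gene itself, read 2194, 2125 and 1928 in WT, between 2248 and 2395 in hpr1∆, 1441 and 1251 in sub2∆, and 1749 and 1943 in tho2∆. It fell in sub2∆, with -0.63 ± 0.09 (limma adjusted p = 0.000455), and its differences of 0.14 in hpr1∆ and -0.17 in tho2∆ did not pass. YCK2, a casein kinase gene, fell in sub2∆ (-0.64 ± 0.12, limma adjusted p = 0.00155), as did STD1, a corepressor gene (-0.36 ± 0.10, limma adjusted p = 0.0110). HXK2, the main hexokinase gene, fell in hpr1∆ (-0.25 ± 0.07, limma adjusted p = 0.0147). YCK2 and HXK2 were called lower in tho2∆ too (-0.53 and -0.23). Without WT replicate 1, 3 genes of this branch were called lower in hpr1∆ in place of 1, while calls over all probe sets rose from 2581 to 3089.

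The values of MTH1 and MIG2 are given because of their patterns and were picked after these had been seen. MIG2 was listed with the Rgt1 branch because glucose induces it through that branch, although its protein is a repressor related to Mig1. MTH1, the other corepressor gene, read 4000 in WT replicate 1 against 1287 and 984 in replicates 2 and 3, and between 560 and 1035 in the mutants. WT replicate 1 thus stood apart in MTH1 as it did in HXT2 and SNF3. MIG2 read 2094 in WT replicate 1, the only filled WT cell, between 488 and 514 in hpr1∆, 1502 and 1593 in sub2∆, and 1359 and 1351 in tho2∆. It could not be tested against WT, but it was higher than in hpr1∆ by 1.59 ± 0.07 in sub2∆ (limma adjusted p = 2.33e-05) and by 1.40 ± 0.07 in tho2∆ (limma adjusted p = 7.02e-05). As with HXT1 and MIG3, hpr1∆ was the lowest of the mutants.

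Of 13 genes of the Snf1 and Mig1 branch, 3 were called higher and 3 lower in hpr1∆, 2 and 6 of 12 tested in sub2∆, and 2 and 7 of 12 in tho2∆ (medians 0.01, -0.36 and -0.32). Called genes thus made up 6 of 13, 8 of 12 and 9 of 12, beside the 45.6%, 61.2% and 57.0% of all probe sets given above, so that in hpr1∆ and sub2∆ the count was near the background. SNF1, the kinase gene, fell in sub2∆ (-0.72 ± 0.09, limma adjusted p = 0.000214). GAL83 and SNF4, for other subunits of the kinase, fell there as well (-1.10 ± 0.08 and -0.54 ± 0.09, limma adjusted p = 9.06e-06 and 0.000868). SNF1, GAL83 and SNF4 were also called lower in tho2∆ (-0.71, -0.83 and -0.31) but not in hpr1∆ (-0.19, 0.01 and 0.10). GLC7, the phosphatase gene, rose by 0.87 ± 0.07 in tho2∆ (limma adjusted p = 2.57e-05) and was called higher in hpr1∆ (0.37) and sub2∆ (0.63) too. Of 14 measured genes of the Gpr1 and Ras branch, which raises cAMP when glucose is added, 7 were called lower and 1 higher in hpr1∆, 8 of 13 lower and 0 higher in sub2∆, and 7 of 13 lower and 0 higher in tho2∆. Over all probe sets 45.6%, 61.2% and 57.0% were called, and 22.8%, 40.4% and 32.6% were called lower. The numbers called in sub2∆ and tho2∆ were thus near the background, though all of them were lower. Medians of the branch were -0.30, -0.61 and -0.47. Without WT replicate 1, 7 of its genes were called lower and 3 higher in hpr1∆. It was 9 lower and 1 higher in sub2∆, and 7 lower and 0 higher in tho2∆. Medians were then -0.28, -0.40 and -0.33. In that setting 3089 of 5672, 3235 of 4806 and 3030 of 4756 probe sets were called. RAS2, a GTPase gene, read between 4729 and 5464 in WT and 1468 and 1541 in sub2∆, where it fell (-1.73 ± 0.08, limma adjusted p = 2.26e-06). IRA2 (-1.34 ± 0.07, limma adjusted p = 3.62e-06), CDC25 (-1.28 ± 0.08, limma adjusted p = 5.44e-06) and GPA2 (-1.36 ± 0.12, limma adjusted p = 2.45e-05) also fell in sub2∆. RAS2, IRA2, CDC25 and GPA2 were called lower in hpr1∆ (-0.85, -0.90, -0.31 and -0.49) and tho2∆ (-1.38, -1.06, -1.20 and -0.74) as well.

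**Figure D4:**
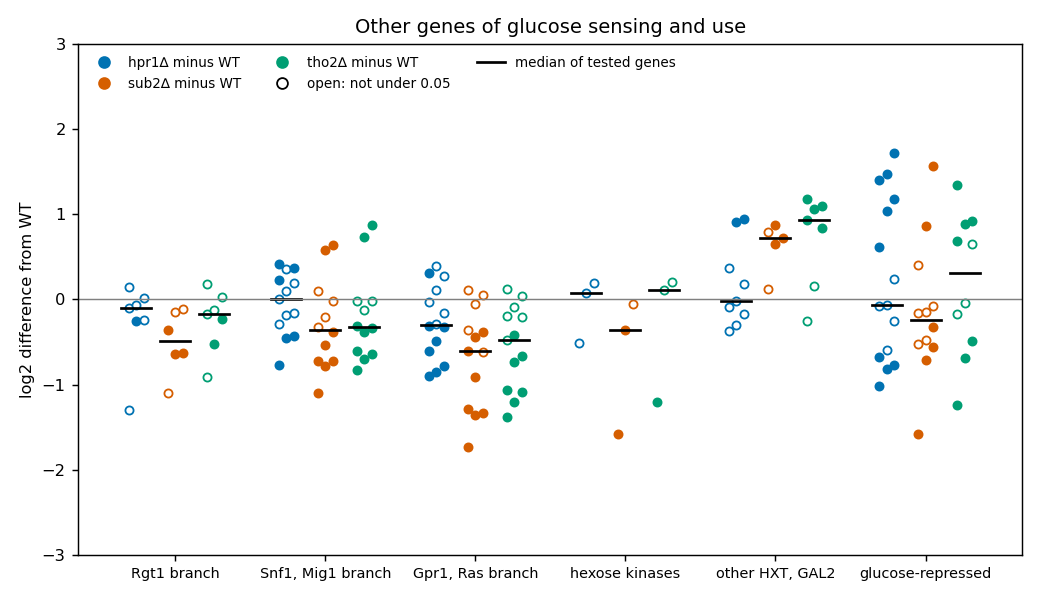
Log2 difference from WT (vertical axis) of the tested genes of 6 lists (horizontal axis) in each mutant, with filled points for an adjusted p under 0.05 and bars for the median of the tested genes. The Gpr1 and Ras branch has medians of -0.30, -0.61 and -0.47, and the less used carrier genes have medians of 0.72 in sub2∆ and 0.93 in tho2∆.

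The other hexose carrier genes of the HXT family and GAL2, the galactose permease gene, are little used in glucose medium. Of 9 measured, 2 were called higher in hpr1∆, 3 of 5 tested in sub2∆ and 5 of 7 tested in tho2∆, and 0 were called lower. Over all probe sets 22.8%, 20.8% and 24.4% were called higher, so that the count in hpr1∆ was near the background. Medians were -0.02, 0.72 and 0.93. Several of these signals lay near the offset of 16, as those of HXT15 between 17.6 and 24.1 in WT, and there the offset shrinks log2 differences. How far such signals lay above background was not known, so whether their differences reflect transcript levels was not tested. GAL2 and HXT9 read higher, HXT9 between 124 and 560 where filled (named after its values were seen). GAL2 read 117, 116 and 81.5 in WT, 77.5, 75.0 and 75.9 in hpr1∆, 160 and 256 in sub2∆, and 250 and 180 in tho2∆, and rose by 0.93 ± 0.21 in tho2∆ (limma adjusted p = 0.00506). HXT14 rose by 1.06 ± 0.28 in tho2∆ (limma adjusted p = 0.0107), from between 35.4 and 56.6 in WT to 143 and 80.6. The probe sets of HXT15 and HXT17, which also rose in tho2∆ (by 1.10 ± 0.14 and 1.18 ± 0.22, limma adjusted p = 0.000664 and 0.00217), are of the shared kind too. In sub2∆ the genes called higher were GAL2, HXT14 and HXT17 (0.87, 0.72 and 0.65).

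Of 3 further hexose kinase genes, 0 were called in hpr1∆, 2 lower in sub2∆ and 1 lower in tho2∆. Over all probe sets 45.6%, 61.2% and 57.0% were called in these strains. GLK1, for glucokinase, fell in sub2∆ (-1.58 ± 0.29, limma adjusted p = 0.00140), and so did EMI2 (-0.36 ± 0.12, limma adjusted p = 0.0324). GLK1 was also the gene called lower in tho2∆ (-1.21). It read 15062 in WT replicate 1 against 8472 and 6392 in replicates 2 and 3, so the sizes rest partly on that array. In sub2∆ it read 3199 and 3024, and in tho2∆ 3956 and 4111. Without WT replicate 1 the list still had 2 genes called lower in sub2∆ and 1 in tho2∆. HXK1 did not pass in any mutant, with 0.11 ± 0.21 in tho2∆ (limma adjusted p = 0.658). Of 15 measured genes known as glucose-repressed, 6 were called higher and 4 lower in hpr1∆, 2 and 4 of 12 tested in sub2∆, and 4 and 3 of 10 in tho2∆ (medians -0.06, -0.24 and 0.30). Against the shares of all probe sets just given, fewer were called in sub2∆ and more in hpr1∆ and tho2∆. Leaving out WT replicate 1 gave 7 higher and 4 lower in hpr1∆, 3 and 3 in sub2∆, and 4 and 3 in tho2∆. Calls over all probe sets rose in each mutant there. The 4 genes with the lowest adjusted p all rose. ADH2, for the alcohol dehydrogenase that consumes ethanol, rose by 1.47 ± 0.19 in hpr1∆ (limma adjusted p = 0.000376). It read 200, 209 and 187 in WT and 628, 675 and 459 in hpr1∆. In hpr1∆ CYB2, a lactate dehydrogenase gene, rose by 1.40 ± 0.09 (limma adjusted p = 6.56e-05) and POT1, a peroxisomal thiolase gene, by 1.71 ± 0.08 (limma adjusted p = 6.30e-05), both with 2 filled WT cells. FBP1, for fructose-1,6-bisphosphatase, rose by 1.57 ± 0.17 in sub2∆ (limma adjusted p = 8.44e-05), from between 79.4 and 102 to 246 and 366. FBP1 was called higher in tho2∆ too (1.34) but not in hpr1∆ (-0.08). ADH2 was also called higher in sub2∆ and tho2∆ (0.86 and 0.92), while CYB2 did not pass in sub2∆ (-0.15). POT1 was empty on all sub2∆ and tho2∆ arrays and CYB2 on both tho2∆ arrays, so they could not be tested there. The POT1 signal was low, at 48.2 and 43.9 on the filled WT arrays and between 181 and 192 in hpr1∆. Genes of this list that fell were picked after their values were seen. SUC2, for invertase, read 3767, 1465 and 1444 in WT and between 626 and 1084 in the mutants, with WT replicate 1 apart from the others. It fell in all 3 mutants, with -1.02 ± 0.32 in hpr1∆, -1.58 ± 0.36 in sub2∆ and -1.25 ± 0.36 in tho2∆ (limma adjusted p = 0.0305, 0.00485 and 0.0167). In hpr1∆ JEN1, a lactate permease gene, GAL1, the galactokinase gene, and SIP4, a transcription factor gene, fell as well (-0.77 ± 0.11, -0.82 ± 0.12 and -0.67 ± 0.13, limma adjusted p = 0.000667, 0.000849 and 0.00906).

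Likeness of pattern was measured by Pearson's r over the arrays filled in both genes, all of which share the 4 strains, so that a step between strains by itself gives a high r. The genes most like HXT1 were SFK1 (r = 0.994 over 9 arrays) and YOR1 (0.988 over 10). Those most like MIG3 were YJL213W (0.986 over 9) and again SFK1 (0.985 over 9). For HXT3 they were PMP2 (0.981) and NHX1 (0.978), each over 10 arrays. For the HXT7 probe set they were OYE3 (0.994 over 9) and BNS1 (0.988 over 8). OYE3 and HXT7 were both highest in hpr1∆.

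For HXT2 the most similar genes were TFB6 (0.952) and CAB5 (0.925), each over 10 arrays, and for SNF3 they were ADY3 (0.987 over 10) and YIR016W (0.980 over 8). HXT4 was most like PHO91 (0.949) and IES6 (0.933), each over 9 arrays, HXT5 most like PAC2 (0.953) and WHI2 (0.939), each over 10, and RGT2 most like YDL085C-A (0.989) and RIF1 (0.987), each over 8. Each was the closest of at least 4250 named probe sets compared. SFK1 was the only gene named for more than 1 member.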

How the data were processed

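Total RNA of the strains was labelled with biotin by the array maker's 1-cycle protocol, per the labels' protocols, and hybridised to 10 single-colour arrays. The authors deposited 1 linear intensity per probe set and array, between 1 and 35972. How these were computed and scaled is not given in the sources used here. Precision is limited by the number of arrays, and how far a signal lay above background was not known. Array medians lay between 1346 and 1541.

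The platform annotation gave 1 gene to 5498 of the 5716 probe sets, no gene to 218 and several to 0. Names follow the R64 table, matched by identifier. Gene positions in R64 served only to order neighbouring genes, and sequences were not used here.

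Version 3.58.1 of limma (R 4.3.3) fitted log2(intensity + 16) over all arrays at once, with strain means, 1 shared spread and empirical Bayes moderation. A probe set was tested where both strains had at least 2 values. Where lists were counted, a gene was represented by the probe set with the most filled cells. The procedure was tested on simulated data.

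All 9 member probe sets were named, the 4 genes with the lowest adjusted p of each list, and the 2 most alike genes of each member. The members and lists were chosen with earlier results of these data known. Replicate numbers did not pair the samples: the correlation of deviations between same-numbered arrays lay between -0.20 and 0.09.

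Alternatives were offsets of 1 and 64, quantile normalization, subtraction of array medians, leaving out the dimmest 25% of probe sets, only the strains compared, only probe sets filled on all 10 arrays, terms for empty cells (over 200 on an array) or for replicate number, array weights, and leaving out each array. The term for empty cells was estimated within WT, the only strain with arrays on both sides of 200.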

Additional observations from a re-analysis of the deposited data

How the results depend on the processing

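Over all alternatives, called member differences kept direction and call in 447 recalculations and lost the call in 12. Differences that were not called stayed so in 444, passed in 19 and changed sign in 21. With only probe sets filled on all 10 arrays, members called fell to 2, 3 and 2 in hpr1∆, sub2∆ and tho2∆ against WT and to 1, 2 and 1 between tho2∆ and hpr1∆, sub2∆ and hpr1∆, and sub2∆ and tho2∆, since 4 of 9 members have an empty cell. The term for empty cells, estimated within WT alone, left 1 and 2 between tho2∆ or sub2∆ and hpr1∆. Leaving out dim probe sets left 1 between sub2∆ and tho2∆, as SNF3 and HXT5 drop out. Leaving out single arrays gave 1 to 2 there. With the 2 strains alone, calls over all probe sets against WT fell from 2581 to 2308 in hpr1∆, from 2936 to 2203 in sub2∆ and from 2710 to 1936 in tho2∆. Members called stayed at 6, 5 and 4 there. Calls over all probe sets between tho2∆ and hpr1∆ numbered 1799, but 1135 with the term for empty cells, 2849 with the 2 strains alone and 2796 with array weights. Between sub2∆ and tho2∆ they numbered 936, and 1540 with array weights. They ran from 369 to 1670 when an array was left out. Subtracting array medians moved the median of all probe sets in sub2∆ against WT from -0.16 to -0.03 and the share of calls that were higher from 34.0% to 46.8%. Between sub2∆ and tho2∆ that share went from 41.1% to 71.3%, and between tho2∆ and hpr1∆ from 40.8% to 29.7% with quantile normalization. No member's called direction changed. Without WT replicate 1, chosen after seeing the data for the lists, 1 marker of alpha cells was called in sub2∆ and 1 in tho2∆ in place of 2 each.

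Sign changes concerned only differences that were not called. With the term for empty cells, HXT5 gave 0.023 in hpr1∆ and -0.37 in tho2∆ against WT and -0.39 in tho2∆ against hpr1∆, and SNF3 gave 0.40 and 0.42 in tho2∆ and sub2∆ against hpr1∆. Quantile normalization gave -0.017 for HXT5 in tho2∆ against WT and 0.0061 for SNF3 in sub2∆ against hpr1∆, and array weights gave -0.059 for HXT4 in sub2∆ against hpr1∆. Leaving out arrays gave -0.10 to 0.16 for HXT1 and -0.063 to 0.10 for SNF3 between sub2∆ and tho2∆, -0.034 to 0.11 for HXT2 and -0.13 to 0.13 for HXT4 between sub2∆ and hpr1∆, -0.39 to 0.023 for HXT5 in hpr1∆, -0.066 to 0.34 for HXT5 in tho2∆ and -0.0083 to 0.12 for HXT7 in sub2∆ against WT. The cause was not tested.

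With the replicate block, members called numbered 6, 4 and 4 against WT and 3, 4 and 2 between mutants. HXT4 in sub2∆ lost its call (-0.43, limma adjusted p = 0.0606) and HXT2 in sub2∆ against hpr1∆ gave -0.094. It changed no other call of a member. Calls over all probe sets were 2040 in hpr1∆ (2581 without the block). Where an array left out leaves 1 in its strain, that array is assumed to vary like those of the other strains.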
